A study of Mytilus galloprovincialis with 16 samples.

Results

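The genes described here belong to the set whose mRNA was most abundant in the digestive gland of female mussels in the hot months, followed in a different tissue, the mantle of female *Mytilus galloprovincialis* during gonadal development. They were taken from 2 k-means clusters of the study's annual digestive gland profile, clusters 1 and 4, which held 45 genes with an EMBL identifier, and kept if they were also on the study's list of genes that changed in female mantle. Of the 45 genes, 44 were on that list. Chitinases (6 genes) and an elongation factor were left out by description, which gave 37 genes (22 of cluster 1 and 15 of cluster 4) of the 368 listed genes that could be tied to a probe and of 1920 probes on the array. Each gene was tied to its probe by its 3 stage values, to within 0.005 on the log2 scale. The largest difference over the 37 genes was 0.0026 and the closest second probe of any of them was 0.0298 away. The digestive gland arrays were not analysed here, so the summer peak itself is taken from the study.

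The mantle list was made from the arrays used below, so the genes were in part selected on the stage changes of these arrays, which are given as a description with their errors. How many genes passed the thresholds of the fit across all probes is part of that description: since the choice used these arrays, nothing is read from the counts, and the share of all probes beside them is background only. The list took genes changed in either direction, and the clusters were formed on another tissue.

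The samples were 16 dual-color cDNA arrays of mantle RNA of wild female mussels from 1 lagoon, with 2 single animals compared on each array. Animals of stage 1, with an early gonad, were collected in November and those of stage 2, with a developing gonad, in January. Ripe animals (stage 3) came from February and spawning animals (stage 4) from March. The comparisons formed a loop: each of stages 2, 3 and 4 was hybridized against the stage before it, and stage 4 was also set against stage 1, on 4 arrays each. Dyes were swapped on 2 of the 4 arrays, and stage 3 was never hybridized against stage 1 directly. Stage and month changed together and cannot be told apart. How the animals were spread over the arrays is not in the labels, and an animal may have been used more than once, so errors measure the spread between arrays. The stage field of 1 array, replicate 4 of stage 3 against stage 2, reads stage 4, but its title and sampling month are those of stage 3, which was used. All values are log2 ratios of the later over the earlier stage, and fitted changes come from 1 linear model over all 16 arrays, with the standard error (SE) of that fit. A gene is said to pass the thresholds when its Benjamini-Hochberg adjusted p from limma, over all 1920 probes, was under 0.05 and its log odds B were above 0.

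The mantle of a mussel houses the gonad, with developing oocytes lying among storage and connective tissue, and its makeup changes as the gonad fills and empties. The digestive gland is the organ of intracellular digestion, nutrient uptake and storage. It lies close to the mantle, and its transcripts include many hydrolases. Of the 37 genes, 14 had a description from sequence similarity and 23 had none. The descriptions covered oxidoreductases, a phospholipase, a membrane serine protease, a chaperone, an RNA helicase, a transcription factor and structural proteins.

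All 37 genes were lower at stage 3 than at stage 2 and passed the thresholds, where 5.78% of all probes passed as lower (111 of 1920) and 6.46% as higher. The median fitted change was -1.71, which is 3.27 times less mRNA at stage 3, with a range of -3.00 to -0.84. The median over all probes was 0.023. Among the 315 other listed genes, 45 passed as lower and 99 as higher at this step, with a median of 0.34. The direction was the same on every array: all 37 genes were below 0 on all 4 arrays, where 22.2% of all probes were below 0 on all 4. The median of the 37 genes was -1.70, -1.59, -1.43 and -1.67 on the 4 arrays, an SD of 0.119.

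Before this fall, 36 of the 37 genes had a fitted level above that of stage 1 at stage 2. The median change was 0.47, and 15 genes passed as higher and 0 as lower, where 2.81% of all probes passed as higher and 4.48% as lower. On the arrays, 34 of 37 genes were above 0 on all 4, compared with 18% of all probes. The size of this rise differed between arrays. The median of the 37 genes was 1.30 on replicate 1, against 0.58, 0.43 and 0.51 on replicates 2, 3 and 4. The sign of the median at stage 2 also rested on the direct arrays: in a fit without the 4 arrays of stage 2 against stage 1, the median was -0.032. The count of 15 was 3 in that fit, 9 without the arrays of stage 4 against stage 3, 4 with plain background subtraction, 7 with scaling between arrays, and 8, 8 and 7 without replicate number 1, 2 and 4.

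At stage 4 the genes were also lower than at stage 1. The fitted median was -1.28, or 2.43 times less mRNA, and 30 of 37 genes passed as lower and 0 as higher, where 3.23% of all probes passed as lower and 0.99% as higher. The 4 direct arrays gave medians of -1.66, -1.72, -1.51 and -1.15. On these arrays 33 of 37 genes were below 0 on all 4, compared with 22.5% of all probes. In a fit without these 4 arrays, 1 gene passed as lower and the median was -0.82. At stage 3, which reached stage 1 only through other stages, the median was -1.15 and 26 genes passed as lower and 0 as higher, where 4.22% of all probes passed as lower and 3.8% as higher. Between stages 4 and 3 the median was -0.21, and 0 genes passed in either direction, where 2.66% of all probes passed as lower and 2.24% as higher. At an unadjusted p under 0.05 in the limma fit, 9 genes were lower and 2 higher, where 11.4% of all probes were lower and 10.8% higher. The direct arrays gave medians of 0.16, -0.21, 0.05 and -0.17 there, on both sides of 0. Sizes moved with the background correction: without any, the medians were -0.66 at stage 3 and -0.73 at stage 4 against stage 1, and with plain subtraction -1.51 and -2.07. The count at stage 3 was 5 in a fit without the arrays of stage 4 against stage 3 or against stage 1, 17 without replicate number 4, 11 with median centring in place of loess and 13 with scaling between arrays.

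**Figure D1:**
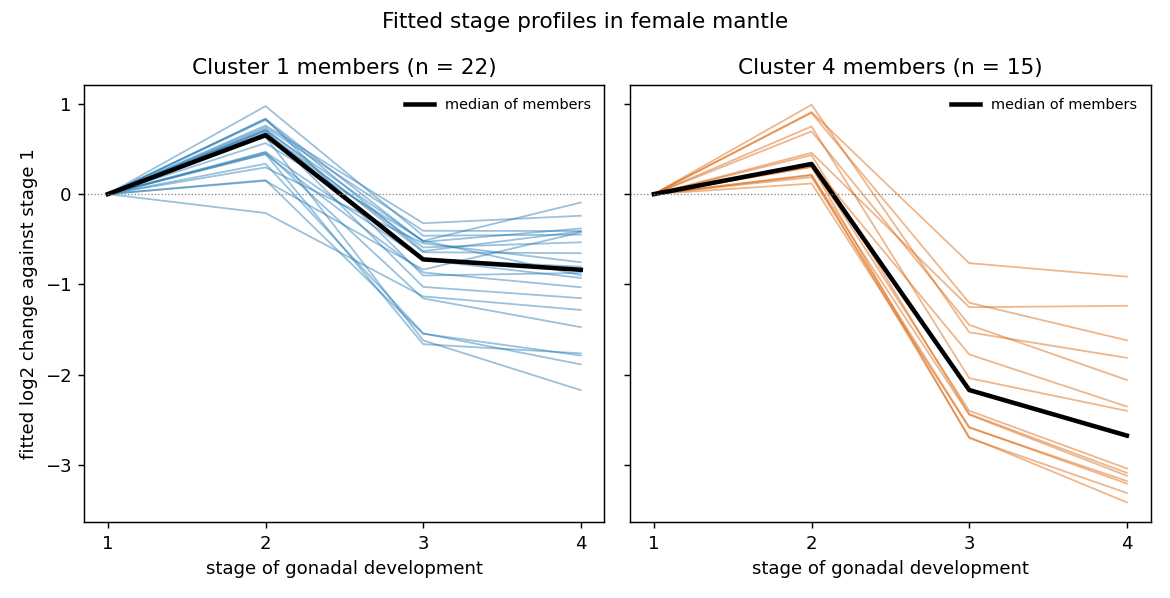
Fitted log2 change against stage 1 (y axis) at stages 1 to 4 (x axis) for each of the 22 cluster 1 genes and 15 cluster 4 genes, with 1 thin line per gene and the median as a thick line. Both medians lie above 0 at stage 2 (0.65 in cluster 1 and 0.33 in cluster 4) and below 0 at stages 3 and 4.

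The clusters differed in the size of the falls. Cluster 4 genes had a median change of -2.65 at stage 3 against stage 2 and -2.67 at stage 4 against stage 1, the last being 6.38 times less mRNA at stage 4. Cluster 1 genes had medians of -1.36 and -0.84 in these comparisons. The rise at stage 2 against stage 1 had no such order: the fitted medians were 0.33 for cluster 4 and 0.65 for cluster 1, while on the 4 direct arrays cluster 4 had 1.62, 0.56, 0.46 and 0.55 and cluster 1 had 1.20, 0.59, 0.42 and 0.44, with cluster 4 higher on 3 of the 4. A fall of at least 1 at stage 4 was fitted for 14 of 15 cluster 4 genes and 8 of 22 cluster 1 genes. At stage 4 against stage 3 the fitted change was below 0 in 14 of 15 cluster 4 genes (median -0.59) and in 14 of 22 cluster 1 genes (median -0.094), and 0 of them passed the thresholds. The direct arrays of cluster 4 had medians of 0.23, -0.36, 0.03 and -0.52, on both sides of 0 and none as low as the fitted one. The study treated both clusters as 1 group whose digestive gland profiles differed in intensity.

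**Figure D2:**
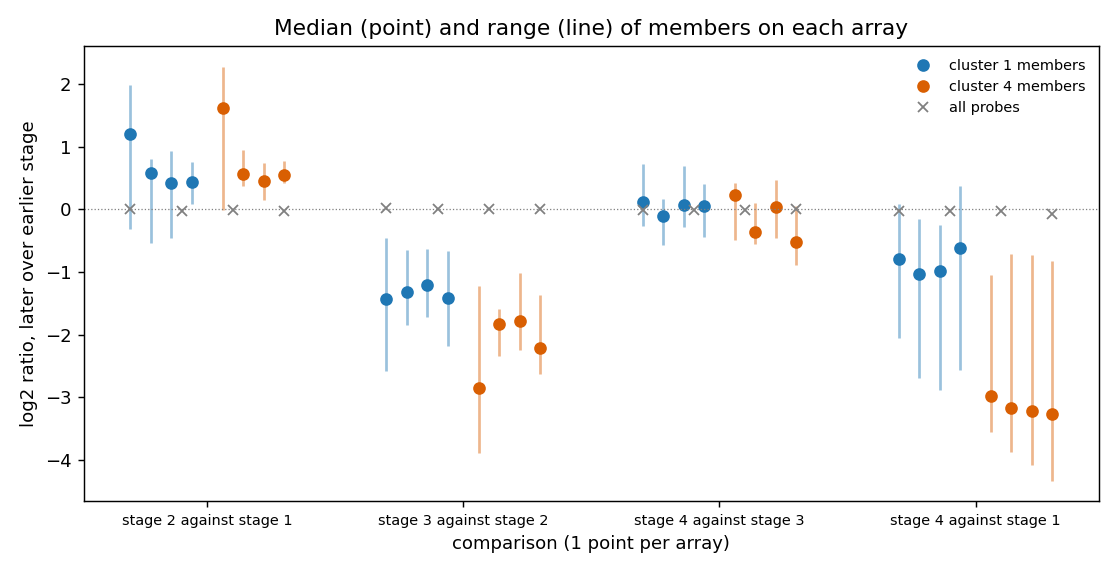
Log2 ratio of the later over the earlier stage (y axis) on each of the 4 arrays of each comparison (x axis), with points for the median and lines for the lowest and highest gene of cluster 1 and cluster 4, and crosses for the median of all probes. In stage 3 against stage 2 no gene is above 0 on any array, and in stage 2 against stage 1 replicate 1 stands above the other 3 arrays, with medians of 1.20 for cluster 1 and 1.62 for cluster 4.

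HSP90 (AJ625621, cluster 1), an ATP-dependent chaperone that matures signalling proteins, had ratios of -2.004, -1.74, -1.24 and -2.01 at stage 3 against stage 2. At stage 2 against stage 1 it had 1.69, 0.75, 0.31 and 0.54, so that it was higher at stage 2 than at either neighbouring stage on every array. Its fitted changes were 0.84 ± 0.15 at stage 2 against stage 1, -1.74 ± 0.15 at stage 3 against stage 2 and 0.03 ± 0.15 at stage 4 against stage 3 (SE). Set against stage 1, stage 4 was at -0.87 ± 0.15, or 1.83 times less mRNA. It was the only gene of the 37 for which the study designed a quantitative PCR assay. The study reported that assay for the female digestive gland over the year, and its mantle assays were of other genes. The oligonucleotides of the HSP90 assay, which were not placed on a sequence here, were:
AJ625621 sense primer: cacaggtgaatccaaagatgttgt
AJ625621 probe: aagtcctcgcttcctcagtctctcaaca
AJ625621 antisense primer: actcatcaatggggtctatcatgt
The sequences of the array's cDNA probes were not used here.

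The match to general transcription factor IIIC polypeptide 1 (AJ625594, cluster 1), part of the complex that recruits RNA polymerase III, had the largest fall of cluster 1. Its ratios were -1.96, -2.23, -2.88 and -2.57 at stage 4 against stage 1, and the fitted change was -2.17 ± 0.22. At stage 3 against stage 2 they were -2.59, -1.68, -1.59 and -2.17. It was thus low on all 8 arrays that set a late stage against stage 1 or 2, by more than most genes of its cluster. A DEAD box polypeptide (AJ626065), an ATP-dependent RNA helicase, moved less but with the arrays close together at stage 3 against stage 2, at -1.30, -1.37, -1.32 and -1.45. Its fitted changes were 0.69 ± 0.11 at stage 2 against stage 1, -1.41 ± 0.11 at stage 3 against stage 2 and -0.80 ± 0.11 at stage 4 against stage 1.

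The 2 oxidoreductases were the genes closest to their early level at stage 4. Glucose dehydrogenase (AJ626213) and a glucose-methanol-choline oxidoreductase (AJ625322) are FAD-dependent enzymes that oxidise alcohol groups of sugars and related compounds. Glucose dehydrogenase had ratios of 1.20, 0.45, 0.93 and 0.48 at stage 2 against stage 1 and -0.98, -1.32, -1.10 and -0.91 at stage 3 against stage 2. The glucose-methanol-choline oxidoreductase had 1.09, 0.60, 0.81 and 0.40 in the first of these and -1.33, -1.24, -1.30 and -0.97 in the other. Both therefore rose and fell on every array. At stage 4 against stage 1 the fitted changes were -0.24 ± 0.10 for glucose dehydrogenase and -0.09 ± 0.12 for the oxidoreductase, the 2 smallest of the 37, and neither passed the thresholds. The oxidoreductase had ratios of 0.09, -0.47, -0.28 and 0.23 there, on both sides of 0. It also had the largest fitted increase of the 37 genes at stage 4 against stage 3, 0.43 ± 0.12, which did not pass the thresholds. Its spots were above the empty spots in 5 of 8 channels at stage 3 and 8 of 8 at stage 4, so part of its stage 3 signal lay near background. Glucose dehydrogenase had 0.08 ± 0.10 at stage 4 against stage 3, and was at -0.32 ± 0.12 at stage 3 against stage 1.

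The phospholipase A2 group IVA match (AJ625525), known in mammals for releasing arachidonic acid from membrane phospholipids, had fitted changes of 0.67 ± 0.09 at stage 2 against stage 1, -1.26 ± 0.09 at stage 3 against stage 2 and -0.53 ± 0.09 at stage 4 against stage 1. Its ratios at stage 3 against stage 2 were -1.27, -1.15, -1.60 and -1.05. It had the smallest SE of the named genes, and its spots were the dimmest of the 37. They were above the empty spots in 5 of 8 channels at stage 3, so part of its stage 3 signal lay near background. The transmembrane serine protease 2 match (AJ624522), a membrane-anchored protease in mammals, had a fitted change of -1.36 ± 0.14 at stage 3 against stage 2, with ratios of -1.44, -1.32, -1.09 and -1.43. Its arrays of stage 4 against stage 1 disagreed in size, with -0.95, -0.31, -1.34 and -0.20.

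Precollagen-D (AJ625760), a collagen of the distal byssus thread, was the exception at stage 2 in the fit. It was the only gene with a fitted level below that of stage 1 there, at -0.21 ± 0.15, and its ratios of -0.05, -0.53, 0.30 and 0.09 lay on both sides of 0. On the direct arrays it averaged -0.05, and AJ625176, fitted at 0.15 ± 0.15, averaged -0.08. The later ratios of precollagen-D were below 0 on every array. They were -0.63, -0.79, -0.64 and -0.97 for stage 3 against stage 2 and -1.34, -2.16, -1.25 and -1.03 for stage 4 against stage 1. The other listed byssus and foot probes did not fall at stage 3 against stage 2. Foot protein-6 (AJ626112) had 1.58 ± 0.14 there and passed as higher, and precollagen-P (AJ623789) had 0.12 ± 0.12. The match to fly cg32858 isoform a (AJ623925), annotated with actin binding and actin filament bundle formation, had fitted changes of 0.56 ± 0.13 at stage 2 against stage 1 and -1.08 ± 0.13 at stage 3 against stage 2. The match to the retinitis pigmentosa GTPase regulator (AJ624832), a protein of the cilium base in mammals that is annotated here with intermediate filament, had the highest fitted value of cluster 1 at stage 2 against stage 1, 0.97 ± 0.14, with ratios of 1.82, 0.76, 0.74 and 0.43. Its spots were above the empty spots in 4 of 8 channels at stage 3 and 3 of 8 at stage 4, the fewest of any of the 37 genes, so its low values at those stages were taken near background.

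The other 4 descriptions were matches to a domain or to proteins of distant organisms. Their sequence similarity was 63% (AJ625500), 57% (AJ625707), 44% (AJ625253) and 48% (AJ624162). Similarity was also low for AJ624832 (44%), AJ624522 (48%) and AJ625594 (55%), named above. The CUE domain containing 1 match (AJ625500) had fitted changes of -1.88 ± 0.22 both at stage 3 against stage 2 and at stage 4 against stage 1. The match described as spore coat protein X (AJ625707) had -1.70 ± 0.18 and -1.79 ± 0.18. The match described as variable surface lipoprotein (AJ625253, cluster 4) had -2.79 ± 0.23 and -2.40 ± 0.23, and the SAM domain match (AJ624162, cluster 4) had -2.14 ± 0.25 and -2.06 ± 0.25. All 4 passed as lower in both comparisons.

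**Figure D3:**
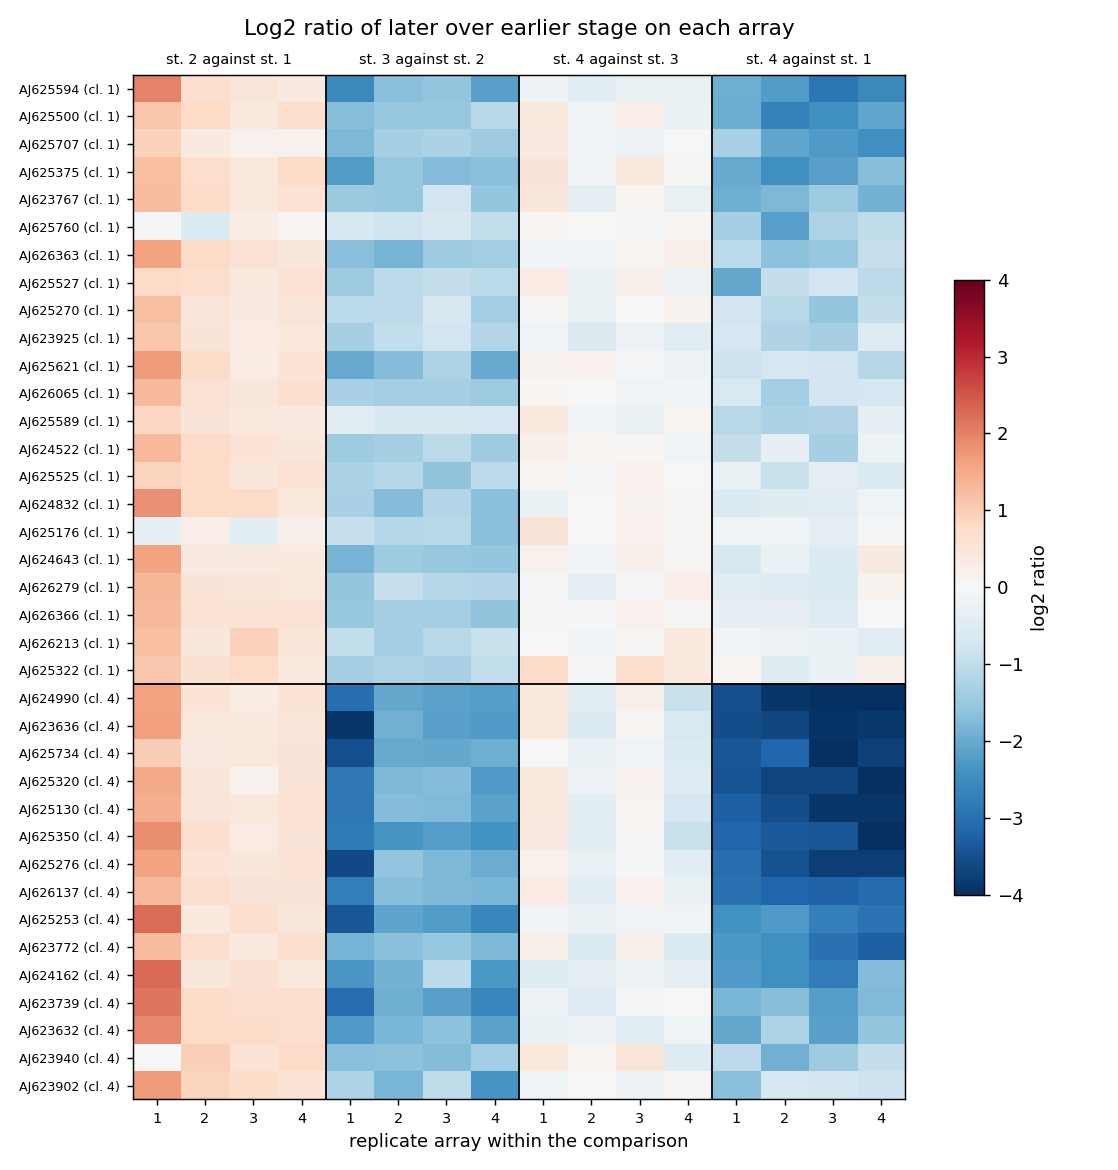
Log2 ratio of the later over the earlier stage (colour, from -4 in blue to 4 in red) for each of the 37 genes (rows, cluster 1 above cluster 4) on each of the 16 arrays (columns, 4 per comparison). Stage 3 against stage 2 is blue in every cell, and the darkest cells are the top rows of cluster 4 in stage 4 against stage 1, down to -4.34 for AJ624990.

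The deepest falls belonged to genes with no description. The 5 largest at stage 4 against stage 1 were all of cluster 4, between -3.12 and -3.41. AJ624990 came first, with ratios of -3.52, -3.88, -4.09 and -4.34 and a fitted change of -3.41 ± 0.31, or 10.6 times less mRNA at stage 4. AJ623636, annotated with nucleic acid and zinc ion binding, had ratios of -3.55, -3.63, -3.93 and -3.85 and a fitted change of -3.31 ± 0.30. These arrays lay far below those of any cluster 1 gene, whose lowest single ratio was -2.88. AJ625734, annotated with development and intracellular signalling, had -3.43, -3.18, -3.99 and -3.75, fitted at -3.20 ± 0.24. AJ625320 was fitted at -3.17 ± 0.30 and AJ625130, with the same binding terms as AJ623636 and a membrane term, at -3.12 ± 0.29. The 5 fitted values lay within 1 SE of AJ624990, and their order is not resolved. AJ625276, which carries terms for chitin binding, chitin metabolism and serine endopeptidase inhibition, followed at -3.04 ± 0.30, with ratios of -3.03, -3.48, -3.77 and -3.78.

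At the other end were AJ626366 (-0.38 ± 0.11), AJ626279 (-0.41 ± 0.13) and AJ624643 (-0.41 ± 0.17), all of cluster 1 and undescribed, beside the 2 oxidoreductases. These 3 passed as higher at stage 2 and as lower at stage 3 against stage 2, and their 4 arrays of stage 4 against stage 1 lay on both sides of 0. In the fit, all 5 genes with the smallest falls passed as higher at stage 2 and 0 of the 5 with the largest falls did, but their direct means at stage 2 against stage 1 overlapped, at 0.68 to 0.76 for the smallest and 0.57 to 0.76 for the largest falls. All 5 of the largest falls also had a loop mismatch, the difference between both routes around the loop, that passed its threshold. The 13 undescribed cluster 4 genes had a median of -3.04 at stage 4 against stage 1, and the 10 undescribed cluster 1 genes -0.84.

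Across the 16 arrays the genes varied together. Over the 666 pairs of genes, the median correlation of their ratios was 0.875, with a range of 0.297 to 0.998, where all 67528 pairs of listed genes had a median of 0.026. The pairs share their arrays and the stage differences that chose the genes. After the mean of each comparison was taken off, the median over the 666 pairs was 0.437, with a range of -0.619 to 0.975, where all pairs of listed genes had a median of 0.049. The closest group was 8 cluster 4 genes with fitted falls over 2.5 at stage 4: AJ624990, AJ623636, AJ625734, AJ625320, AJ625130, AJ625350, AJ625276 and AJ626137. Their 28 pairs had correlations of 0.976 to 0.998 for the ratios and 0.603 to 0.975 for the deviations. The highest pair was AJ625130 with AJ624990 for the ratios and AJ626137 with AJ623636 for the deviations. Whether their probes share sequence or cross-hybridize was not tested. The lowest median correlation with the other genes belonged to AJ625176 (0.523), an undescribed gene of cluster 1 with ratios of -0.32, 0.26, -0.46 and 0.19 at stage 2 against stage 1.

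The loop allows a check on the size of the changes, because the 3 steps should add up to the direct comparison of stage 4 with stage 1. The loop mismatch, the sum of the steps minus the direct value, is orthogonal to the stage coefficients, although the choice of genes also used the residual spread. It passed an adjusted p under 0.05 in limma for 14 of 37 genes (37.8%), where 13.5% of all probes and 33.7% of all listed genes passed. In 13 of the 14 the mismatch was above 0, with the larger fall on the direct arrays, beside 84 of the 124 listed genes and 149 of the 260 probes that passed. Of all probes, 7.76% passed with a mismatch above 0. The median mismatch over the 37 genes was 0.66, beside 0.11 over all probes. It passed for 9 of 15 cluster 4 genes and 5 of 22 cluster 1 genes. The highest mismatches were those of AJ624990 (2.17 ± 0.47, adjusted p = 0.0054) and AJ625320 (2.17 ± 0.43, adjusted p = 0.00314). For AJ624990 the 4 direct arrays averaged -3.95 ± 0.35 (SD, n = 4) and the steps summed to -1.78. AJ625176 had the lowest mismatch, -0.91 ± 0.27 (adjusted p = 0.0378), and was the only one with a smaller direct fall that passed. HSP90 (-0.05 ± 0.36) and both oxidoreductases (0.02 ± 0.24 and 0.06 ± 0.29) had values close to 0. All 15 cluster 4 genes were below 0 by both routes, and the size differed between them. The count moved with the processing, to 1 of 37 genes with median centring in place of loess, 1 with scaling between arrays and 8 with plain background subtraction. It was 3 without replicate number 3, 7 without number 2 and 9 without number 4. It was 9 without replicate 1 of stage 2 against stage 1, and 8 without replicate 2 or 3 of stage 3 against stage 2 or replicate 1 or 3 of stage 4 against stage 3.

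**Figure D4:**
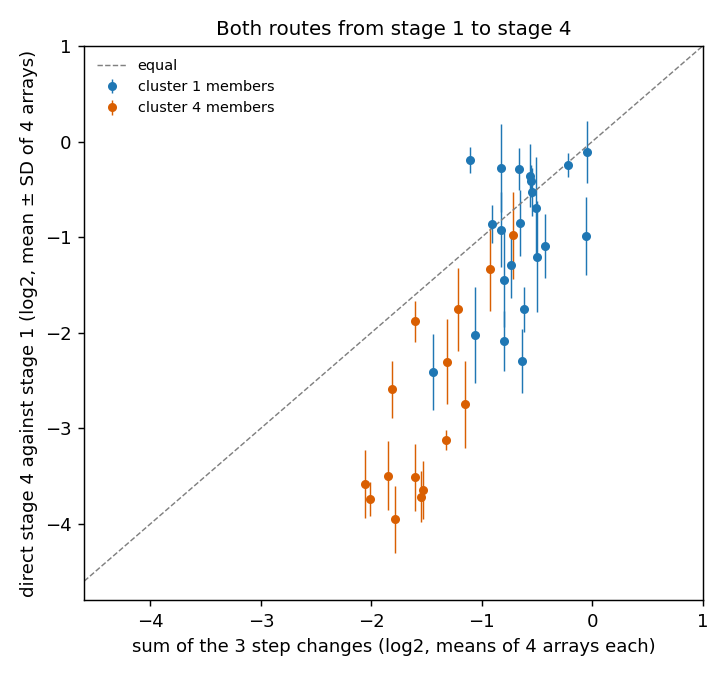
Direct stage 4 against stage 1 change (y axis, log2, mean and SD of 4 arrays) plotted against the sum of the 3 step changes (x axis, log2, means of 4 arrays each) for the 37 genes, with a dashed line where both are equal. In 30 of 37 genes the direct change is below the line, and the cluster 4 genes with the largest falls lie farthest from it.

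The dye effect, Cy5 over Cy3 at equal stage, is also independent of the stage coefficients. It passed an adjusted p under 0.05 for 0 of 37 genes and for 1 of 1920 probes (0.0521%) in limma, and 2 genes had an unadjusted p under 0.05, where 13.1% of all probes had. The estimates ran from -0.28 to 0.26. With median centring in place of loess, 21 of the 37 genes passed. The share of all probes was not counted in that setting, so nothing is read from this count. The genes sat on 12 of the 20 source plates and in 13 of the 16 printing blocks of the array.

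Spot brightness went with the size of the fall. Brightness depends on the amount and length of the spotted cDNA as well as on the transcript, and is not a transcript level. The genes lay between the 52.7th and 98.3rd percentile of mean brightness among all probes, with a median at 78.5 in cluster 1 and 96.0 in cluster 4. Across the 37 genes, Spearman's rho between this percentile and the fitted change at stage 4 was -0.848. It was -0.536 in the 22 cluster 1 genes and -0.818 in the 15 cluster 4 genes. The points share the same arrays, and both measures are taken from the same spots. A spot counts as detected in a channel when its foreground exceeded that of 95% of empty spots there. Over all channels, 18.1% to 92.5% of probe spots were detected. All 5 genes with the largest falls were detected in all 32 channels, and the 5 with the smallest falls in at least 27 of 32.

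**Figure D5:**
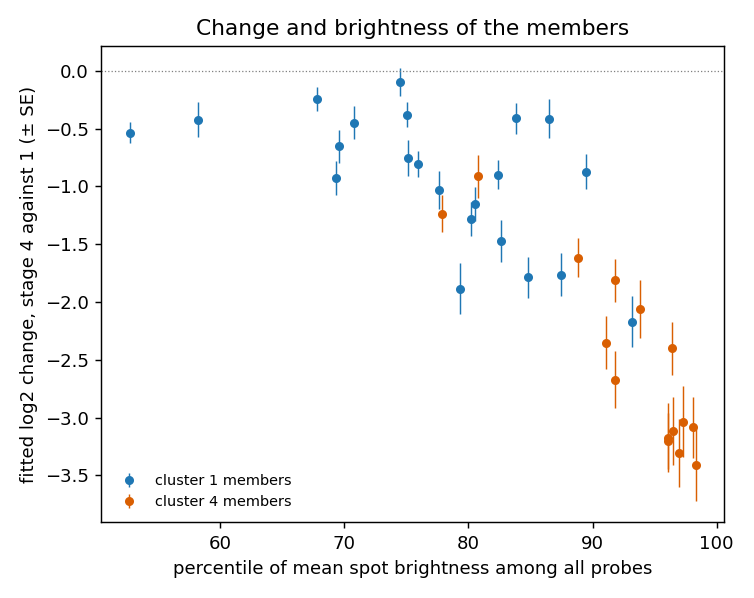
Fitted log2 change at stage 4 against stage 1 with its SE (y axis) plotted against the percentile of mean spot brightness among all probes (x axis) for the 22 cluster 1 and 15 cluster 4 genes. The brightest spots, at the 96th percentile and above, have changes of -2.40 to -3.41.

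The genes of clusters 1 and 4 left out by description and the digestive gland markers outside these clusters differed in profile. The 6 chitinases of clusters 1 and 4, enzymes that cut chitin, had medians of 0.72 at stage 2 against stage 1, -2.46 at stage 3 against stage 2 and -2.17 at stage 4 against stage 1, and all 6 passed as lower in the last 2. The elongation factor-1 alpha probe, also of these clusters but not a digestive gland marker, had -0.95 ± 0.12 at stage 3 against stage 2. By contrast, 9 listed genes outside these clusters, namely 6 vdg3 genes, an alpha-amylase, an endo-beta-glucanase and a trypsin-like enzyme, had fitted medians of -1.56, 0.72 and -0.10 in the same comparisons. Their loop mismatch passed for 7 of 9 (median -2.72), and the direct arrays gave other values than the fit: medians of -0.06, -0.44, -0.08 and 0.31 at stage 3 against stage 2, and 0.97, 0.04, 0.40 and 0.77 at stage 4 against stage 1. Of these 9, 3 passed as lower at stage 2 against stage 1, and 0 passed in either direction at stage 3 against stage 2. At stage 4 against stage 1, 1 passed as lower, the trypsin-like enzyme (-1.42 ± 0.31), and 0 as higher. The 6 vdg3 genes alone had fitted medians of -1.65, 0.73 and -0.08, close to those of the 9. At stage 3 against stage 2 the fitted change was above 0 in 8 of the 9, and the endo-beta-glucanase had -0.16 ± 0.12. The 9 genes were below 0 on all 4 arrays of stage 2 against stage 1, where the 37 genes had positive medians on every array. The mantle RNA is that of a whole tissue, so fewer cells of a type and less RNA per cell cannot be told apart. The 2 vitelline envelope probes, markers of oocytes, had fitted changes of -1.94 (AJ625872) and -0.89 (AJ625914) at stage 2 against stage 1 and 1.14 and 0.56 at stage 3 against stage 2, of which only the first passed the thresholds. Both probes also had a loop mismatch (2.12 with adjusted p = 0.0133, and 2.09 with adjusted p = 0.00116). On the direct arrays both were below 0 on all 4 of stage 2 against stage 1 and above 0 on all 4 of stage 3 against stage 2. In these 2 comparisons they were opposite in sign to the medians of the 37 genes. At stage 4 against stage 1, AJ625872 had direct ratios of -2.31, -1.25, -0.71 and -2.25, of the same sign as the medians of the 37 genes. AJ625914 had -0.05, -0.03, 0.41 and 0.05 there. Both vitelline envelope probes were detected in at least 31 of 32 channels. The 3 probes of sperm or ciliary genes were also detected, in at least 29 of 32 channels, and passed as higher at stage 3 against stage 2. The part of these cell types in the results was not tested.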

How the data were processed

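The deposited intensity values are GenePix readings of the authors' scans without normalization: mean spot and median local background signals, for Cy5 and Cy3. The authors also deposited log2 ratios (channel 1 over channel 2), made in limma (version not given in the sources used here) with an offset background correction and loess. Here, in R 4.3.3 with limma 3.58.1, normexp (offset 50) was applied to the intensities, followed by loess within each array, fitted on probe spots only, and averaging of duplicate spots. All 16 arrays entered 1 limma fit with 3 stage coefficients, in which the share of probes taken beforehand to change was 0.01. The loop mismatch and the dye effect came from limma fits with 1 coefficient per comparison and with a dye term. The fit was tested on simulated data.

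Genes were tied to probes with the deposited log2 ratios. Genes were named if they had a description or a GO term, or were among the 5 largest or 5 smallest falls at stage 4 or the largest or smallest loop mismatch. The 37 genes, the lists and the rules were chosen with earlier results of these data known. Gene descriptions, GO terms and clusters are those of the study; 0 of the 37 identifiers were found in the RefSeq gene table. To check whether replicate numbers mark pairs, deviations from the comparison means were correlated between arrays of the same number. The 16 values ran between -0.214 and 0.173 and 4 exceeded 0.1, and the main fit therefore holds no pairing. Arrays were screened for libraries deposited more than once: the variance between arrays was at least 1.39 times that of the duplicate spots in every pair within a comparison. Precision is limited by the number of arrays. The columns outside the series numbered 0. On replicate 3 of stage 3 against stage 2 a year in the labels also conflicts with the date field.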

Additional observations from a re-analysis of the deposited data

Results flagged for a closer look

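In 14 of 108 groups of 4 arrays examined, 1 array stood apart from the other 3 by Dixon's criterion, which chance alone meets in about 1 in 20 groups. The groups are not independent, since the genes share their arrays. Replicate 1 of stage 2 against stage 1 was high in 10 of them: the median of the 37 genes was 1.30 there, with the nearest other array at 0.58, and that of cluster 4 was 1.62, with the nearest at 0.56. The genes were AJ625253 (2.25), AJ624162 (2.28), AJ623636 (1.63), AJ625130 (1.47), AJ625276 (1.61), AJ626366 (1.30), AJ626279 (1.33) and AJ624643 (1.60), whose other arrays were all at or below 0.67. Replicate 1 of stage 3 against stage 2 was low for AJ625734 (-3.52, nearest -2.04) and AJ624990 (-3.02, nearest -2.21). Replicate 2 of stage 4 against stage 3 was low for AJ625253 (-0.29, nearest -0.13), and replicate 4 of stage 4 against stage 1 was high for AJ626279 (0.13, nearest -0.47).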

How the results depend on the processing

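Of 108 calls of single genes, 0 were reversed in any of 36 alternatives, where a reversal meant passing with the opposite sign. Calls could be lost without that. AJ624522 at stage 4 against stage 1 kept its call in 9 of the 36. AJ623925 at stage 2 against stage 1 and AJ625527 at stage 3 against stage 1 each kept theirs in 13. AJ625734 at stage 3 against stage 2 kept its call in all 36. The median change at stage 2 against stage 1 (0.47) was 1.20 with median centring and -0.032, of the other sign, without the arrays of that comparison. At stage 3 against stage 1 (-1.15), plain background subtraction gave -1.51, and the median was -0.66 with no background correction, -0.997 with median centring, -0.86 with scaling between arrays, -1.46 without the arrays of stage 2 against stage 1 or of stage 3 against stage 2, and -0.93 without those of stage 4 against stage 3 or stage 1. At stage 3 against stage 2 (-1.71) it was -2.07, -1.17 and -2.14 with plain subtraction, no correction and median centring, and -2.15 without its own arrays. For stage 4 against stage 1 (-1.28), plain subtraction gave -2.07, no correction -0.73 and leaving out its own arrays -0.82. At stage 4 against stage 3 (-0.21) it was -0.35, -0.061 and -0.085 with plain subtraction, no correction and median centring, -0.70 without its own arrays and -0.034 without those of any other comparison. The median loop mismatch (0.66) was 0.17 with no correction. The count of 15 genes higher at stage 2 was 4 with plain subtraction, 7 with scaling, 3 without its own arrays and 9 without those of stage 4 against stage 3. The 26 lower at stage 3 against stage 1 were 11 with median centring, 13 with scaling and 5 without the arrays of stage 4 against stage 3 or stage 1. The 30 lower at stage 4 against stage 1 were 1 without its own arrays. At stage 4 against stage 3, 1 gene was higher with adjusted p alone and 7 were lower without its own arrays. A dye effect passed for 21 genes with median centring, and the 14 loop mismatches were 8 with plain subtraction, 1 with median centring and 1 with scaling. The share of all probes that passed was not counted in these alternatives. The causes were not tested.

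Leaving out 1 array or 1 replicate number gave medians of 0.33 to 0.61, -1.25 to -1.10, -1.81 to -1.66, -1.39 to -1.08 and -0.29 to -0.17 for stage 2 against 1, 3 against 1, 3 against 2, 4 against 1 and 4 against 3, and 0.54 to 0.81 for the loop mismatch. It gave counts of 7 to 15 higher at stage 2, 17 to 29 lower at stage 3 against stage 1, 35 to 37 lower at stage 3 against stage 2, 24 to 31 lower at stage 4 against stage 1, and 3 to 15 loop mismatches. With the replicate number as a block (replicate block), the counts were 15, 26, 37, 30 and 14 in that order, and the 0 counts of the other stage comparisons did not change. The block takes 1 common correlation for all arrays of a number. In this loop, an animal reused within a number would move some arrays together and others in opposite directions. The unchanged counts therefore cannot show whether pairing matters. The medians of all probes stayed within 0.1 of 0 under every scaling tried. In dim channels ratios lie close to background. They were not filtered out, and had the same normexp correction and loess as all others.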
